A study of Mus musculus with 12 samples.

Results

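The genes described here encode voltage-gated ion channels and their relatives: the pore and auxiliary subunits of sodium, calcium and potassium channels and the HCN pacemaker channels. They were chosen by gene symbol (Kcn, Scn, Cacna1, Cacna2d, Cacnb, Cacng and Hcn families, without Kcne2 and without antisense genes). The rule found 115 of the 14881 genes in the count table. The annotation holds 137 protein-coding genes of these families, and the other 22 were not analysed here. The symbols are wider than the name: the 12 Kcnj genes (inward rectifiers), the 10 Kcnk genes (2-pore leak channels) and the Kcnn genes (calcium-gated channels) encode channels without voltage gating of the classical kind, and several Cacng genes encode auxiliary subunits of AMPA glutamate receptors.

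The RNA came from the hippocampus of the right hemisphere, per the series description, of 12 APPswe mice, all male and 22 to 26 months old, which overexpress amyloid precursor protein from a transgene. Each mouse had received 5 µL of an adeno-associated virus of serotype AAV1 into the cisterna magna, with a CMV promoter driving either eGFP (control vector) or mVEGF-C, the mouse form of a growth factor for lymphatic vessels. All mice were then injected intraperitoneally each week with 40 mg/kg of either mIgG (control antibody) or mAdu (mAducanumab, a mouse version of an antibody to aggregated amyloid beta). Mice 1 to 3 had both controls (eGFP+mIgG, the double control), mice 4 to 6 the antibody only (eGFP+mAdu), mice 7 to 9 the growth factor only (mVEGF-C+mIgG) and mice 10 to 12 both agents (mVEGF-C+mAdu, the combined treatment), with 1 library each. No untreated mouse and no mouse without the transgene is among the groups, and the driver of the transgene is not given in the sources used here. Values by mouse are given below in that group order, as CPM (counts per 1000000 reads of the TMM-scaled library total).

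Neurons fire when voltage-gated sodium channels open and bring in sodium, and they recover when voltage-gated potassium channels let potassium out. Voltage-gated calcium channels turn the spike into calcium entry, which releases transmitter at terminals and signals to the nucleus in dendrites. HCN channels open on hyperpolarization and tune dendritic excitability and rhythm, while inward rectifier and leak potassium channels set the resting potential in neurons and glia. Pyramidal cells, granule cells and interneurons of the hippocampus use different sets of these genes.

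Several libraries stood apart. App, the mouse gene whose product the transgene adds to, measured 1342 CPM in mouse 5 and 3716 CPM in mouse 6, whereas the other 10 libraries lay between 4721 and 5507 CPM, so the library labelled as mouse 5 did not show the App level of the others. In the 3 double controls, 8.59, 8.51 and 2.44% of all reads were counted for ENSMUSG00000045999, an identifier to which the annotation gave no symbol, against 0.0108 to 0.105% in the other 9 libraries. Each comparison with the double control uses these 3 libraries. With that gene left out of the fit, an alternative added after seeing the data, 1 member in place of 2 passed for the combined treatment, and the number passing was the same in the other comparisons. Within each group, the highest-numbered mouse (3, 6, 9 and 12) held the middle value of the group in most members that varied beyond counting noise. It did so in 23 of 26 such members in eGFP+mIgG, 29 of 33 in eGFP+mAdu, 34 of 40 in mVEGF-C+mIgG and 17 of 20 in mVEGF-C+mAdu. Over all genes the corresponding shares were 82.5, 81.9, 79.2 and 85.9%. If libraries shared material, the tests below would rest on fewer than 12 independent mice, and p-values would come out too low. Counts of passing members and some single changes are therefore also given without mice 3, 6, 9 and 12 or without mice 5 and 6. Most single changes below are given with all mice only. The sample source label names brain meninges, but hippocampal markers were abundant (median 98.8 to 121 CPM over 5 CA1 pyramidal markers) and meningeal fibroblast markers low (median 5.56 to 14.4 CPM over 7). Regional markers also differed between mice 7 and 8, which share a group. Sums were 521 and 402 CPM for dentate granule cells, 148 and 209 for thalamus and 101 and 150 for neocortex. Whether tissue content has a part in the channel gene values of these mice was not tested. The same RNA level can reflect fewer cells of a type or less RNA per cell, which cannot be told apart in tissue libraries.

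Channel genes took between 0.832 and 0.950% of the counted reads in the 12 libraries. The 2 lowest shares, 0.832 and 0.866%, were in mice 1 and 2, in which ENSMUSG00000045999 took 8.59 and 8.51% of reads. In CPM, which uses TMM scaling, members summed to 8855 and 9341 in these mice, within the range of 8682 to 9396 over the 12. Of the 115 members, 29 averaged over 100 CPM, 84 averaged at least 10 CPM, and 4 averaged under 1 CPM (Kcnk5, Kcne4, Kcnmb1 and Kcnj13). Every member passed the filter on low counts, with at least 239 reads over the libraries. Compared per kilobase of transcript, the auxiliary subunits of voltage-gated potassium channels made up 27.5% of the summed channel level when the median transcript length of each gene was used, the potassium pore subunits 16.9% and the sodium pore subunits 14.6%. By the longest transcript the shares were 16.1, 21.8 and 6.59%. The order of the families thus depends on the transcript length chosen, while HCN genes (1.24 or 2.43%) and 2-pore channel genes (1.88 or 3.11%) were low by both. Kcnab2, a beta subunit of Kv1 channels, was the highest member per kilobase by median length, at 967 CPM per kb. By the longest transcript it measured 148 CPM per kb.

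**Figure D1:**
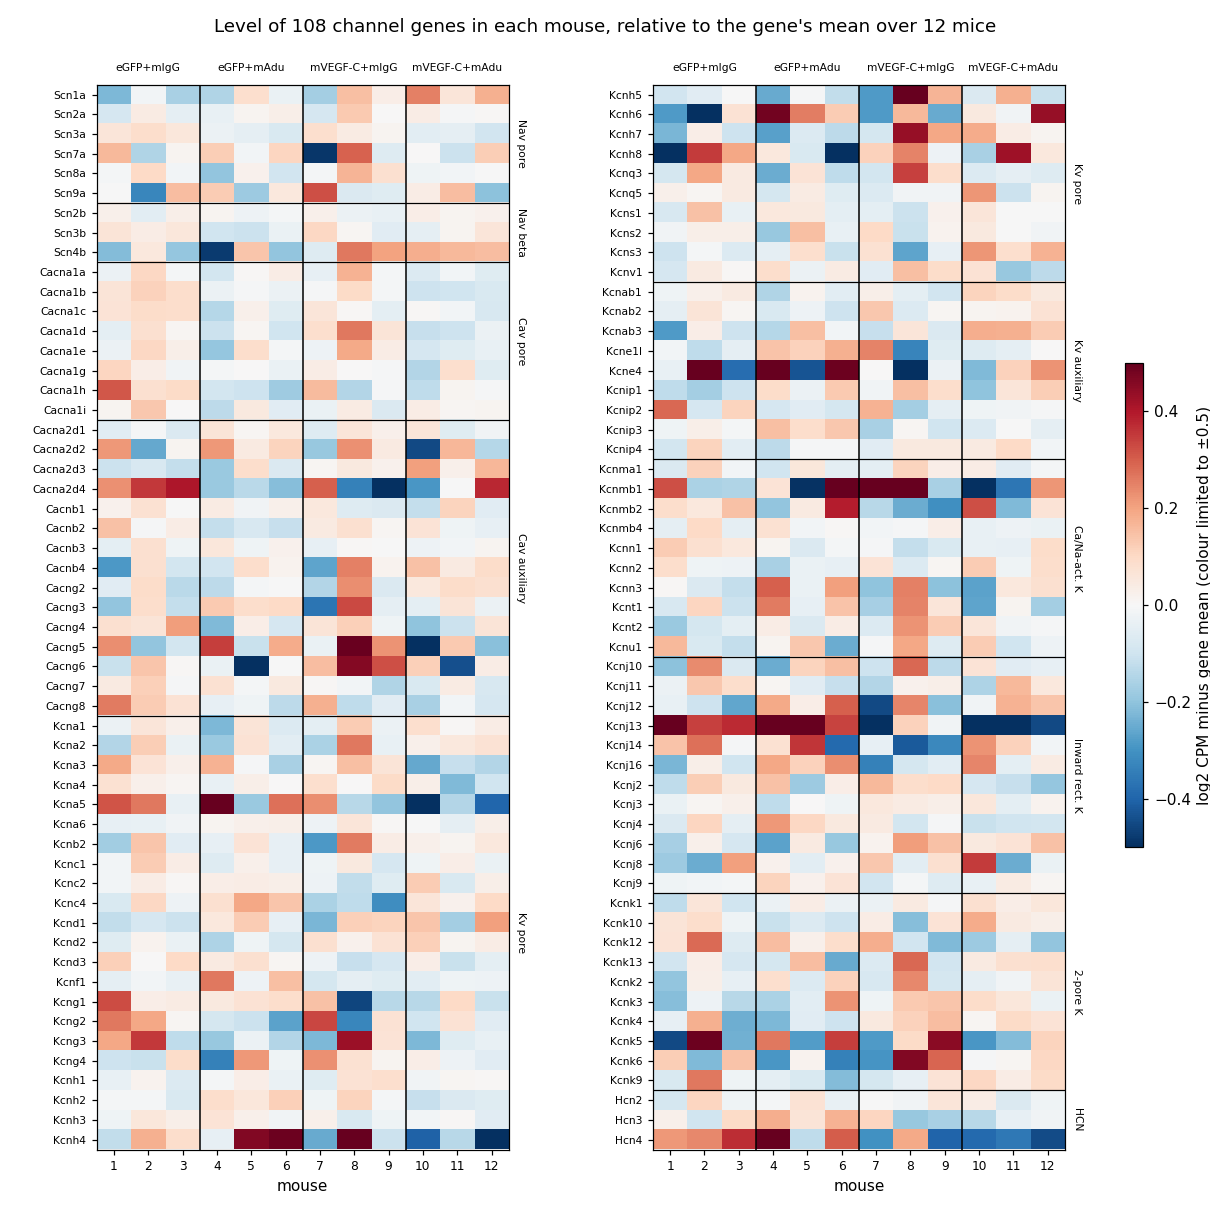
Level of each of 108 of the 115 channel genes (rows, grouped by role) in each of the 12 mice (columns, grouped by treatment), as log2 CPM minus the gene's mean over the mice, with colours limited to ±0.5. Most rows are pale, mice 7 and 8 differ from each other in many rows, and the strong colours belong mainly to low genes such as Kcnj13, Kcne4 and Kcnmb1.

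Few channel genes passed a test for a difference between groups with edgeR, and few of all genes did. With 3 mice per group, a gene that did not pass was not thereby shown to be unchanged. For the antibody under the eGFP vector (eGFP+mAdu against eGFP+mIgG), 0 members passed edgeR's quasi-likelihood test at a Benjamini-Hochberg adjusted p under 0.05, where 0.0336% of all genes passed. At an unadjusted p under 0.05 there were 22 members (19.1%) against 9.21% of all genes, and the 3 values of each group did not overlap in 26 members (22.6%) against 15.4%. For the antibody under the mVEGF-C vector, 0 members passed, against 0.208% of all genes. At an unadjusted p under 0.05 there were 16 members (13.9% against 12.7%), and groups did not overlap in 15 (13% against 16.5%).

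For the vector under mIgG (mVEGF-C+mIgG against eGFP+mIgG), 0 members passed, against 0.0403% of all genes, with 15 members at an unadjusted p under 0.05 (13% against 7.91%) and 17 without overlap (14.8% against 12.4%). For the vector under mAdu, 0 members passed, against 0.047% of all genes, with 24 at an unadjusted p under 0.05 (20.9% against 14.3%) and 28 without overlap (24.3% against 21.7%). With both agents together, set against the double control, 2 members passed, Cacna1b lower and Cacna2d3 higher, a share of 1.74% beside 2.18% of all genes. At an unadjusted p under 0.05 there were 18 members (15.7%) against 20.4% of all genes, and 25 members did not overlap (21.7%) against 27.2%. These comparisons share groups, and their counts are not independent of each other.

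Averaged over both vectors, the antibody effect passed for 1 member, Kcnc4, beside 0.571% of all genes, and 29 members (25.2%) had an unadjusted p under 0.05 against 15.5%. Averaged over both antibodies, the vector effect passed for 0 members, beside 0.39% of all genes, and 21 members (18.3%) had an unadjusted p under 0.05 against 16%. No member passed for the interaction, the difference between the antibody effects under the 2 vectors: the smallest adjusted p of a member was 0.614, 0.0134% of all genes passed, and 12 members had an unadjusted p under 0.05 (10.4% against 6.82%). With edgeR, a test for any difference among the 4 groups passed for Kcnc4 alone, beside 0.618% of all genes. In that test 31 members (27%) had an unadjusted p under 0.05 against 17.6% of all genes.

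Median changes of the 115 members were near 0 in the 5 pairwise comparisons, from -0.007 to 0.017 on the log2 scale, beside medians from -0.004 to 0.001 over all genes. The counts depend on the tool. DESeq2 passed 1, 1, 0, 1 and 4 members in the 5 pairwise comparisons in the order above, beside 0.316, 0.847, 0.134, 0.8 and 3.06% of all genes. With limma-voom and sample quality weights, 12, 10, 10, 17 and 23 members passed, beside 3.41, 8.29, 6.3, 6.52 and 17.9% of all genes. For the interaction, the averaged antibody effect, the averaged vector effect and any difference, DESeq2 passed 0, 4, 3 and 7 members (0.0538, 1.59, 1.04 and 2.88% of all genes) and limma-voom 3, 20, 21 and 50 (1.48, 11.3, 12 and 25.5%). Without mice 3, 6, 9 and 12, edgeR passed 0 members in each of the comparisons, and between 0 and 0.0134% of all genes (0.00672% for the averaged antibody effect).

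**Figure D2:**
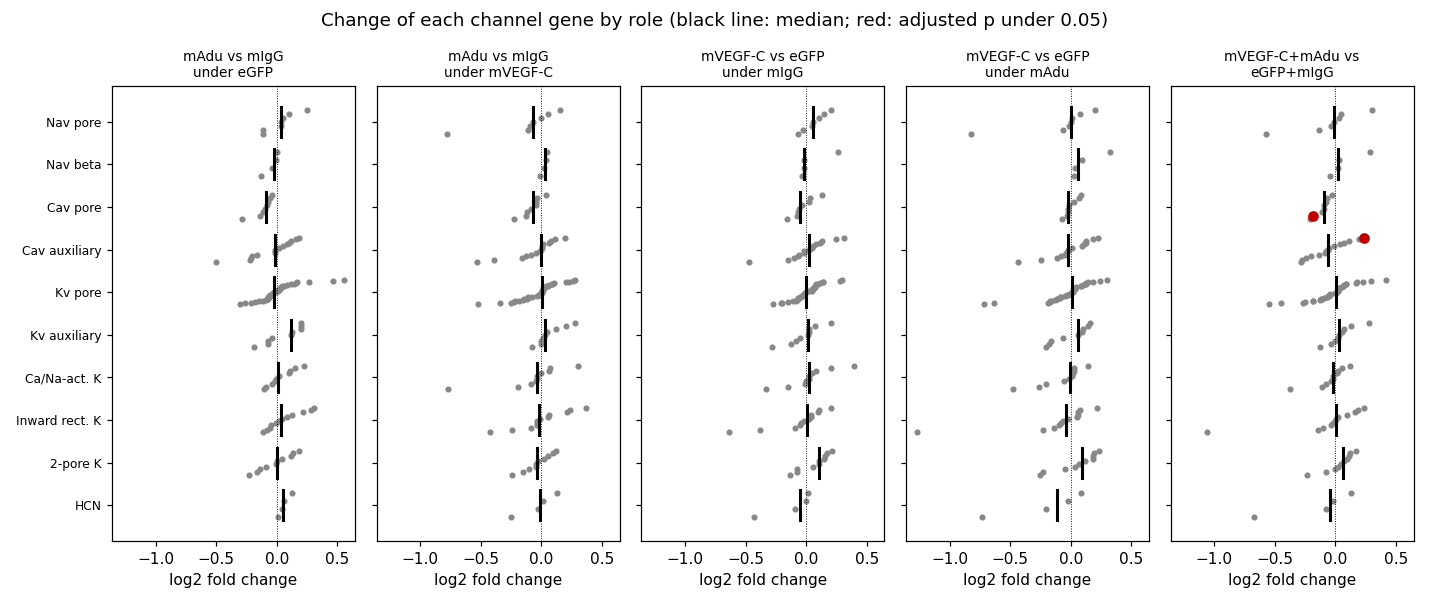
Log2 fold change (horizontal axis) of each channel gene, grouped by role (vertical axis), in the 5 pairwise comparisons, with the median of each role as a black line and members past an adjusted p of 0.05 in red. Only Cacna1b and Cacna2d3 in the combined treatment are red, and the calcium channel pore genes lie left of 0 in the first and last panels. Smaller roles were also one-sided, in part with changes near 0. For the antibody under eGFP, 0 of 4 sodium beta genes and 4 of 4 HCN genes were positive. For the vector under mAdu, 4 of 4 sodium beta genes were positive.

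The calcium channel pore genes (Cacna1) form the voltage-sensing, calcium-conducting subunit and name the current type. Cacna1b encodes the N-type channel of presynaptic terminals and lies on the minus strand of chromosome 2 (GRCm38, 24603887 to 24763152). It measured 101, 105 and 103 CPM in eGFP+mIgG mice, 94.98, 96.5 and 95.2 in eGFP+mAdu mice, 96.6, 104 and 96.3 in mVEGF-C+mIgG mice and 90.3, 90.4 and 92.1 in mVEGF-C+mAdu mice. All mice given mAdu lay below all mice given mIgG within each vector, and the 3 mice with the combined treatment were the lowest of the 12. The mean was 103 ± 1.82 CPM (SD, n = 3) in the double control and 90.9 ± 0.988 CPM with the combined treatment, a log2 change of -0.18 (SE 0.037, edgeR adjusted p = 0.0262). For the antibody averaged over vectors the change was -0.12 (SE 0.026, edgeR adjusted p = 0.0592). Cacna1b no longer passed for the combined treatment when mouse 1, 3, 10, 11 or 12 was left out in turn (adjusted p 0.052 to 0.107). Without mice 3, 6, 9 and 12 the change was -0.19 with an adjusted p of 0.560. With each library's trends with GC content and transcript length removed, it was -0.10 with an adjusted p of 0.139.

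The 150 bases upstream of the annotated start are shown for the 2 members that passed for the combined treatment, from RefSeq on GRCm38.p6, read 5′ to 3′ on the minus strand of each gene. Capitals mark the GC box (GGGCGG or its complement CCGCCC, a Sp1-type motif) and the core of the cyclic AMP response element (TGACG or CGTCA). For Cacna1b the stretch is chr2:24763153-24763302, and for Cacna2d3 it is chr14:29721865-29722014.
Cacna1b: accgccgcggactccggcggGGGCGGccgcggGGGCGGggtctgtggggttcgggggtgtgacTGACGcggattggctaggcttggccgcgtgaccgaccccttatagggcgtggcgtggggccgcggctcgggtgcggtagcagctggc
Cacna2d3: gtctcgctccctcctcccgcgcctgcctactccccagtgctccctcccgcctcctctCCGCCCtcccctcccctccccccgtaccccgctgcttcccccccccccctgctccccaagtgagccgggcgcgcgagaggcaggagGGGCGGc
Within 250 bases upstream, Cacna1b held 3 GC boxes, 1 TGACG core and 29 CG dinucleotides, and Cacna2d3 held 4 GC boxes, 0 TGACG cores and 30 CG dinucleotides. The window of the third passing gene, Kcnc4, held 1 GC box, 1 TGACG core and 12 CG dinucleotides. Its 150 bases nearest the RefSeq start (chr3:107458899-107459048) lie within the annotated span of the gene and overlap an annotated exon. They are therefore not shown. Both motifs were searched on both strands in the 250-base windows. A GC box was in 32.7% of 32851 mouse windows and in 44% of the 116 windows of the 82 members matched by symbol, and a TGACG core in 17.8 and 14.7%. A match is a run of letters and does not show that a factor binds there.

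Cacna1h encodes a low-threshold T-type channel. It measured 106, 90.5 and 91.5 CPM, then 80.2, 79.7 and 75.6, then 95.6, 77.3 and 85.2, and last 78.4, 86.4 and 85.2 CPM. Each eGFP+mAdu mouse lay below each eGFP+mIgG mouse, with a change of -0.29 (SE 0.072, edgeR adjusted p = 0.226), and the mVEGF-C groups overlapped with a change of -0.05 (SE 0.072, edgeR adjusted p = 0.853). Exons of Cacna1h overlap those of Tpsg1 on the opposite strand, and whether counting used the strand is not given in the sources used here. Cacna1c, the main L-type channel of the brain, measured 87.2, 88.4 and 88.2 CPM, then 75.2, 84.5 and 79.7, then 86.7, 83.5 and 80.3, and last 83.5, 82.2 and 78.5 CPM. Its values in eGFP+mAdu were all below those in eGFP+mIgG, a change of -0.14 (SE 0.045, edgeR adjusted p = 0.377). Cacna1d, the other neuronal L-type channel, measured 26.7, 29.1 and 27.8 CPM, then 25.6, 27.7 and 25.7, then 29.2, 33.2 and 28.9, and last 25.5, 25.7 and 27.01 CPM. Under mVEGF-C the mAdu mice lay below the mIgG mice without overlap, with a change of -0.22 (SE 0.063, edgeR adjusted p = 0.152). Cacna1d shares exon sequence with Chdh on the opposite strand.

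Cacna1e, the R-type channel, measured 334, 367 and 349 CPM, then 298, 363 and 339, then 336, 389 and 349.9, and last 322, 327 and 333 CPM and was the calcium pore gene with the most reads. Under mVEGF-C its mAdu values lay below the mIgG values, with a change of -0.13 (SE 0.064, edgeR adjusted p = 0.418), and within eGFP+mAdu the mice differed by more than the group means. The P/Q-type gene Cacna1a (77.5 to 93.2 CPM over the 12 mice) and the T-type genes Cacna1g (33.9 to 40.4 CPM) and Cacna1i (61.5 to 73.9 CPM) overlapped in all 5 pairwise comparisons. As a group, the fitted change was negative in 8 of 8 pore genes for the antibody under eGFP (median -0.09), in 7 of 8 under mVEGF-C (median -0.07) and in 8 of 8 for the combined treatment (median -0.10), beside medians of all genes within 0.005 of 0. Of these single changes only that of Cacna1b for the combined treatment passed with edgeR. For the antibody under eGFP, DESeq2 also passed Cacna1h (adjusted p = 0.0363), and limma-voom passed Cacna1b, Cacna1c and Cacna1h (adjusted p 0.00823 to 0.0488). For the combined treatment limma-voom passed the same 3 genes and DESeq2 passed Cacna1b. For the vector under mIgG and under mAdu, 5 of 8 were negative.

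These genes are GC-rich and long by their longest transcripts. The median of the longest transcripts was 9697 bases and the median GC content 55.3%, beside 3413 bases and 50.6% over all genes. The trend removal used each gene's median transcript length, with a median of 4247.5 bases for these genes and 1524 over all genes. By that length Cacna1i (586.5 bases), Cacna1a (1153) and Cacna1h (1270.5) were shorter than the median over all genes. With trends in GC content and length removed from each library, 8 of 8 stayed negative for the antibody under eGFP (median -0.07), 4 of 8 under mVEGF-C (median -0.02) and 5 of 8 for the combined treatment (median -0.06). The removal also moved the medians of all genes, to 0.0048, 0.0224 and 0.0257, and 8, 7 and 6 of the 8 pore genes lay below these. Without mice 3, 6, 9 and 12 the counts of negative changes were 8, 7 and 8. When each mouse was left out in turn, they ran from 6 to 8, from 6 to 7 and from 7 to 8.

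Markers of several neuron types differed alongside, in both directions. The 6 dentate granule cell markers, all measured and none under 1 CPM, summed to 473 to 488 CPM in the double controls, 436 to 443 in eGFP+mAdu, 402 to 521 in mVEGF-C+mIgG and 426 to 439 in mVEGF-C+mAdu. The 5 CA3 pyramidal markers, likewise all measured, summed to 614 to 643, 558 to 578, 584 to 648 and 592 to 601 CPM. The median marker was also taken, in log2 CPM centred on each gene's mean. By it the dentate list was lower in eGFP+mAdu and mVEGF-C+mAdu than in the double controls without overlap. The CA3 list overlapped: -0.0594 to 0.0780 in the double controls, -0.0955 to 0.0805 in eGFP+mAdu and -0.0983 to -0.00775 in mVEGF-C+mAdu. The sums of both lists were thus lower in eGFP+mAdu and in the combined treatment than in the double controls, without overlap. The sums of 2 further lists overlapped. The 5 CA1 pyramidal markers summed to 589 to 607 CPM in the double controls, 601 to 621 in eGFP+mAdu, 555 to 638 in mVEGF-C+mIgG and 595 to 615 in mVEGF-C+mAdu. The 6 excitatory neuron markers summed to 1985 to 2149, 1935 to 2010, 1924 to 2111 and 1980 to 1991 CPM in that order. The 8 inhibitory neuron markers went the other way from the dentate and CA3 lists. They summed to 690 to 719 CPM in the double controls and 741 to 784 in eGFP+mAdu. In mVEGF-C+mIgG they summed to 710 to 735 CPM and in mVEGF-C+mAdu to 720 to 770. By the median marker, this list overlapped between the double controls and the combined treatment. In the 5 pairwise comparisons, 0 of the 11 dentate and CA3 markers and 0 of the 8 inhibitory markers passed edgeR's test. The part of these cells in the values of the calcium channel genes was not tested.

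**Figure D3:**
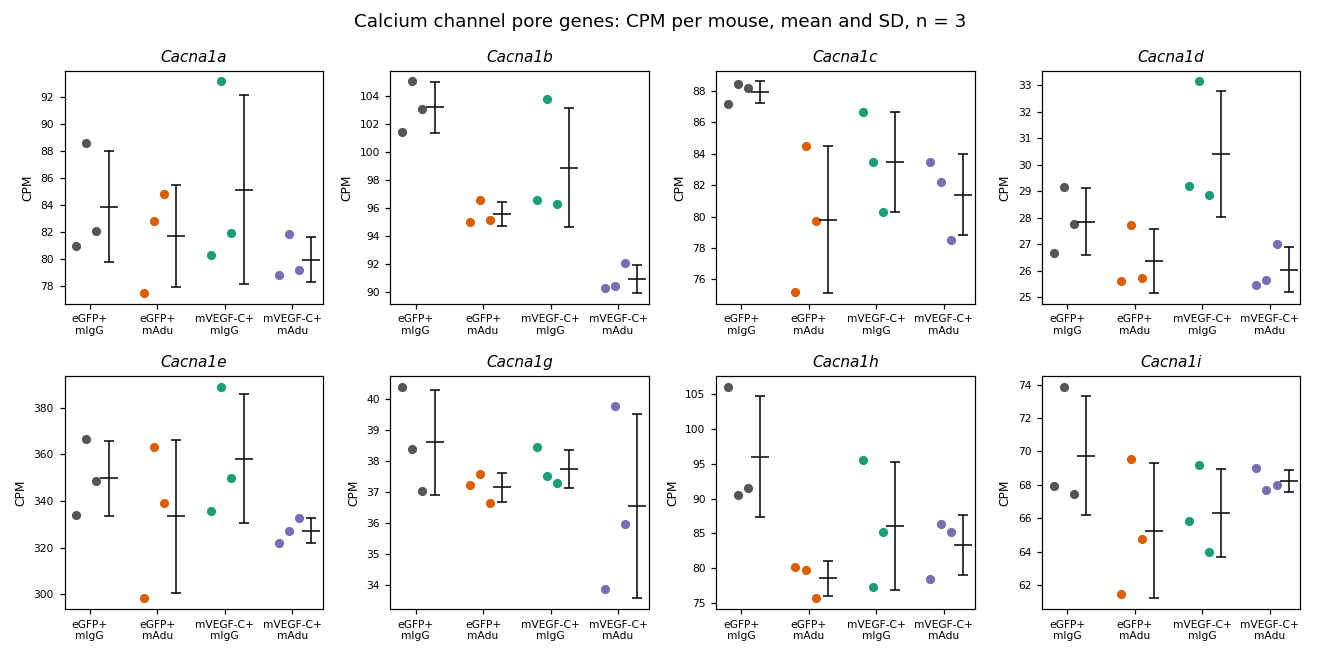
CPM of the 8 calcium channel pore genes in each mouse (points, vertical axis) by group (horizontal axis), with mean and SD (bars, n = 3), on axes that do not start at 0. In Cacna1b the 3 mice with the combined treatment lie between 90.3 and 92.1 CPM, below the other 9, whereas Cacna1g and Cacna1i overlap.

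Among the auxiliary calcium channel subunits, alpha 2 delta subunits bring channels to the membrane and beta subunits set gating and traffic. Cacna2d3, an alpha 2 delta subunit on chromosome 14 (minus strand, 28904943 to 29721864), measured 124, 127 and 123 CPM in eGFP+mIgG mice, 118, 142 and 127 in eGFP+mAdu mice, 135, 138 and 136 in mVEGF-C+mIgG mice and 154, 136 and 150.2 in mVEGF-C+mAdu mice. The 3 mice with the combined treatment lay above the 3 double controls, and so did the mVEGF-C+mIgG mice, while both mAdu groups overlapped through mouse 5. The mean was 125 ± 1.81 CPM (SD, n = 3) in the double control and 147 ± 9.42 CPM with the combined treatment, a log2 change of 0.24 (SE 0.059, edgeR adjusted p = 0.0482). For the vector averaged over antibodies the change was 0.16 (SE 0.041, edgeR adjusted p = 0.105). The call for the combined treatment was lost without mouse 1, 2, 3, 6, 9, 10 or 12 (adjusted p 0.0574 to 0.175), and without mice 3, 6, 9 and 12 together the change was 0.21 with an adjusted p of 0.578. With GC and length trends removed it was 0.21 with an adjusted p of 0.0757. With ENSMUSG00000045999 left out of the fit it was 0.24 with an adjusted p of 0.0512.

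Cacna2d1, the alpha 2 delta subunit with the most reads, measured 305, 316 and 301 CPM, then 332, 319.5 and 329, then 303, 330.4 and 323, and last 331, 304 and 314 CPM. Its eGFP+mAdu mice lay above the double controls, a change of 0.09 (SE 0.042, edgeR adjusted p = 0.547). Cacnb2, a beta subunit, measured 63.8, 57.5 and 59.2 CPM, then 53.2, 54.5 and 53.3, then 59.4, 60.9 and 58.02, and last 60.5, 56.8 and 55.99 CPM. The 3 eGFP+mAdu mice were the lowest of the 12, with a change of -0.17 (SE 0.046, edgeR adjusted p = 0.268) against eGFP+mIgG. Cacnb4, the beta subunit with the most reads in this set, ranged from 181 to 262 CPM, lowest in mouse 1 and highest in mouse 8, and overlapped in all 5 pairwise comparisons.

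The Cacng genes for AMPA receptor auxiliary subunits behaved unevenly. Cacng8, the gamma 8 subunit enriched in hippocampus, measured 102, 93.2 and 89.8 CPM, then 82.9, 84.2 and 77.9, then 96.6, 78.1 and 82.04, and last 76.3, 84.5 and 80.6 CPM. Both the eGFP+mAdu mice and the mice with the combined treatment lay below the double controls, with changes of -0.22 (SE 0.069, edgeR adjusted p = 0.361) and -0.24 (SE 0.069, edgeR adjusted p = 0.0751). For the combined treatment, DESeq2 (adjusted p = 0.0402) and limma-voom (adjusted p = 0.0125) passed Cacng8. A small annotated RNA gene, Gm23450, shares its exon sequence on the same strand. Cacng5 measured 16.96, 12.6 and 13.5 CPM, then 18.3, 13.4 and 16.4, then 14.1, 20.4 and 16.8, and last 7.37, 15.8 and 12.5 CPM and overlapped in all 5 comparisons, with mouse 10 lowest and mouse 8 highest. Cacng2, which encodes stargazin, ranged over 33.04 to 42.97 CPM, and Cacng3 over 17.6 to 28.4 CPM, both with mouse 7 lowest and mouse 8 highest. Under mAdu the mVEGF-C mice lay above the eGFP mice for Cacng2, by 0.12 (SE 0.082, edgeR adjusted p = 0.512), and below them for Cacng3, with a change of -0.11 (SE 0.12, edgeR adjusted p = 0.704).

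Cacna2d4, an alpha 2 delta subunit known from retina, ranged over 1.03 to 1.93 CPM. The eGFP+mAdu mice lay below the double controls, with a change of -0.50 (SE 0.22, edgeR adjusted p = 0.488). Cacng6 (0.700 to 1.51 CPM) was lower in mVEGF-C+mAdu than in mVEGF-C+mIgG without overlap, with a change of -0.39 (SE 0.22, edgeR adjusted p = 0.490). Its mVEGF-C+mIgG mice also lay above the double controls. Cacna2d2 (18.4 to 29.5 CPM) overlapped in all 5 comparisons. The remaining auxiliary genes were Cacnb1 (95.5 to 112 CPM), Cacnb3 (109 to 119.5 CPM), Cacng4 (5.72 to 7.71 CPM) and Cacng7 (41.2 to 49.7 CPM). Of these, only Cacng4 had groups without overlap, with eGFP+mAdu and the combined treatment below the double controls. Of the 15 auxiliary genes, fitted changes were positive in 7 for the antibody under eGFP, 7 under mVEGF-C, 8 and 7 for the vector under mIgG and mAdu, and 5 for the combined treatment.

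Most sodium channel pore genes encode channels that carry the upstroke of the spike. Scn2a and Scn8a, the main pores of excitatory neurons, had the highest levels of the 7 per kilobase, with Scn2a at 302 by median and 61.1 by longest length and Scn8a at 316 by median and 27.3 by longest length in CPM per kb. Scn2a ranged from 515 to 597 CPM and overlapped in all 5 comparisons. Scn3a, a channel best known from the developing brain, measured 91.2, 92.7 and 90.99 CPM, then 85.6, 84.8 and 82.9, then 92.5, 89.8 and 88.3, and last 84.2, 84.8 and 81.7 CPM. Every mouse given mAdu lay below every mouse given mIgG, under both vectors. The change was -0.12 (SE 0.035, edgeR adjusted p = 0.316) under eGFP, -0.11 (SE 0.035, edgeR adjusted p = 0.197) under mVEGF-C and -0.11 (SE 0.025, edgeR adjusted p = 0.0525) averaged over vectors, so it missed edgeR's threshold in each. Under eGFP and mVEGF-C, limma-voom passed Scn3a (adjusted p 0.0356 and 0.0409) and DESeq2 did not (adjusted p 0.392 and 0.324).

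Scn1a, the main sodium channel of fast-spiking interneurons, measured 183, 213 and 192 CPM, then 193, 227 and 209, then 191, 238 and 219.7, and last 256, 224 and 243 CPM. The 3 mice with the combined treatment lay above the double controls, a change of 0.30 (SE 0.078, edgeR adjusted p = 0.0564), but the eGFP+mAdu and mVEGF-C+mIgG mice reached 227 and 238 CPM. For the combined treatment, DESeq2 (adjusted p = 0.0121) and limma-voom (adjusted p = 0.00079) passed Scn1a. Scn8a measured 309, 334 and 309 CPM, then 272, 316 and 292, then 309, 350.4 and 329, and last 307, 308 and 311 CPM and overlapped in each pairwise comparison.

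The sodium pore genes Scn7a (6.93 to 11.9 CPM) and Scn9a (1.999 to 3.14 CPM) were low and overlapped in all 5 comparisons.

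The sodium channel beta subunits are single-span adhesion proteins that modulate the pore. Scn2b ranged from 402 to 426 CPM and was among the steadiest members (SD of log2 CPM over 12 mice 0.03). Scn3b measured 184, 181 and 184 CPM, then 165, 164 and 172, then 189.7, 178 and 169.8, and last 171, 178 and 184 CPM. Its eGFP+mAdu mice lay below the double controls, with a change of -0.13 (SE 0.043, edgeR adjusted p = 0.377). Scn4b, the subunit linked to resurgent current, measured 24.3, 29.3 and 24.6 CPM, then 20.3, 31.02 and 24.6, then 27.01, 33.9 and 32.4, and last 32, 31.5 and 31.4 CPM. Under mAdu the mVEGF-C mice all lay above the eGFP mice, narrowly over mouse 5. The change was 0.32 (SE 0.12, edgeR adjusted p = 0.233), and averaged over antibodies it was 0.29 (SE 0.085, edgeR adjusted p = 0.127).

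**Figure D4:**
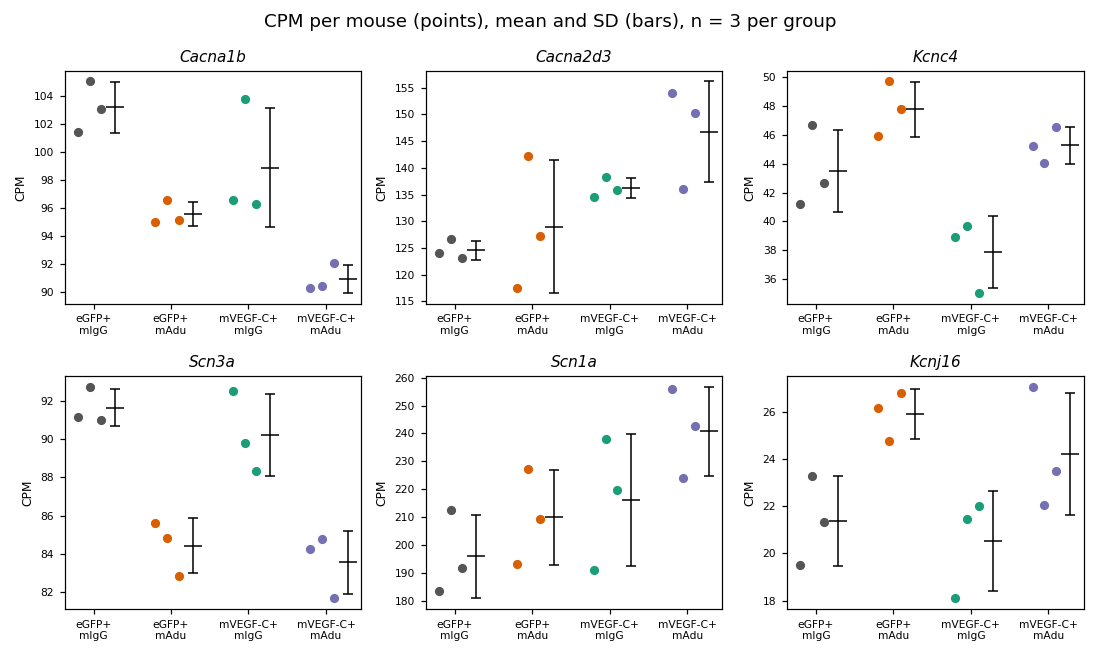
CPM of 6 channel genes in each mouse (points, vertical axis) by group (horizontal axis), with mean and SD (bars, n = 3), on axes that do not start at 0. Cacna1b, Cacna2d3 and Kcnc4 passed in at least 1 comparison, whereas Scn3a, Scn1a and Kcnj16 had adjusted p values of 0.0525, 0.056 and 0.069 at their smallest.

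Pore subunits of voltage-gated potassium channels repolarize the spike, and 36 were measured. Kcnc4 encodes Kv3.4, a fast, inactivating channel of axons and terminals, and lies on the minus strand of chromosome 3 (107438303 to 107459552). It measured 41.2, 46.7 and 42.6 CPM in eGFP+mIgG mice, 45.9, 49.7 and 47.8 in eGFP+mAdu mice, 38.9, 39.7 and 35.03 in mVEGF-C+mIgG mice and 45.2, 44.02 and 46.6 in mVEGF-C+mAdu mice. The mVEGF-C+mIgG mice were the 3 lowest of the 12, and under mVEGF-C all mAdu mice lay above all mIgG mice, whereas the eGFP groups overlapped through mouse 2. The antibody change averaged over vectors was 0.20 (SE 0.041, edgeR adjusted p = 0.0448). Under mVEGF-C alone it was 0.26 (SE 0.059, edgeR adjusted p = 0.0776) and under eGFP 0.14 (SE 0.058, edgeR adjusted p = 0.486). The 2 antibody effects were not shown to differ, with an interaction of 0.12 (SE 0.082, edgeR adjusted p = 0.848). The test for any difference among groups gave an edgeR adjusted p of 0.0461. The averaged antibody effect no longer passed without mouse 1, 3, 4, 5, 6, 9, 10, 11 or 12 (adjusted p 0.0537 to 0.145). It was 0.15 with an adjusted p of 0.835 without mice 3, 6, 9 and 12, and 0.17 with an adjusted p of 0.190 without mice 5 and 6.

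The subthreshold A-type genes Kcnd2 and Kcnd3 encode Kv4 channels of dendrites. Kcnd2 measured 194, 205 and 198 CPM, then 182, 199.96 and 191, then 214, 206 and 213, and last 220.3, 204 and 208 CPM. All mVEGF-C mice lay above the eGFP mice of the same antibody, and the change averaged over antibodies was 0.11 (SE 0.03, edgeR adjusted p = 0.105). Kcnd3 measured 115, 106 and 114 CPM, then 109, 112 and 107, then 104, 97.9 and 100.1, and last 109, 98.3 and 103 CPM. Its mVEGF-C+mIgG mice lay below the double controls, and the averaged change was -0.12 (SE 0.032, edgeR adjusted p = 0.110), opposite in sign to that of Kcnd2.

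Kcnq3 encodes a subunit of the M-type channels that limit repetitive firing. It ranged from 127 to 192 CPM, lowest in mouse 4 and highest in mouse 8, and its groups overlapped.

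Kcna1, Kcna2 and Kcna4 encode Kv1 subunits of axons. Kcna1 (205 to 261 CPM) and Kcna2 (45.1 to 61.5 CPM) overlapped in all 5 comparisons. Kcna4 measured 75.97, 73.3 and 72.5 CPM, then 70.1, 73.5 and 72.2, then 76.4, 72.03 and 77, and last 73.4, 61.8 and 67.2 CPM. Mice 11 and 12 held the 2 lowest values of the 12, and for the antibody under mVEGF-C the change was -0.15 (SE 0.053, edgeR adjusted p = 0.227) with overlap. Kcnc1 (91.8 to 106 CPM), the Kv3.1 channel of fast-spiking cells, also overlapped in all 5.

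Kcnh7, an ERG-type channel, measured 88.4, 106 and 96.5 CPM, then 85.7, 98.7 and 94.5, then 97.5, 140.01 and 118, and last 118, 106 and 104 CPM. Mouse 8 was the highest, the mVEGF-C+mAdu mice lay above the eGFP+mAdu mice, and the vector change averaged over antibodies was 0.27 (SE 0.071, edgeR adjusted p = 0.108). Exons of Kcnh7 and Gca overlap on opposite strands. The silent subunit gene Kcnf1 measured 112, 114 and 113 CPM, then 139, 114 and 128, then 109, 112 and 111, and last 111, 114 and 114 CPM. Mice 4 and 6 were higher than the other 10, and the change for the antibody under eGFP was 0.17 (SE 0.053, edgeR adjusted p = 0.368) with overlap. Kcns3, another silent subunit, measured 12.7, 13.5 and 13.01 CPM, then 13.2, 14.4 and 12.6, then 14.4, 11.4 and 13.3, and last 15.9, 14.5 and 15.4 CPM. The mice with the combined treatment were the highest group, above the double controls by 0.22 (SE 0.084, edgeR adjusted p = 0.151).

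Among the low Kv pore genes, Kcnh6, an ERG-type channel, measured 1.34, 0.976 and 1.72 CPM, then 2.29, 1.95 and 1.79, then 1.34, 1.83 and 1.37, and last 1.69, 1.62 and 2.21 CPM. Its eGFP+mAdu mice lay above the double controls, with a change of 0.55 (SE 0.21, edgeR adjusted p = 0.455). Kcna5, a Kv1 subunit best known from heart, measured 2.51, 2.42 and 1.96 CPM, then 3.05, 1.77 and 2.43, then 2.36, 1.83 and 1.75, and last 1.34, 1.82 and 1.53 CPM. The combined treatment lay below the double control, with a change of -0.55 (SE 0.22, edgeR adjusted p = 0.169). The silent subunit gene Kcng1 measured 17.3, 14.1 and 14.2 CPM, then 14.2, 14.5 and 14.6, then 15.2, 10.02 and 12.5, and last 12.5, 14.8 and 12.8 CPM and had a change of -0.27 (SE 0.12, edgeR adjusted p = 0.618) for the vector under mIgG, with overlap. Kcnh4, an ELK-type channel, ranged over 0.644 to 1.59 CPM. The mVEGF-C+mAdu mice lay below the double controls and below the eGFP+mAdu mice, with a change of -0.72 (SE 0.26, edgeR adjusted p = 0.224) against the latter. Kcnh8 (0.771 to 1.62 CPM) overlapped in all 5 comparisons.

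Kcnq5, another subunit of M-type channels, ranged over 112 to 141 CPM with mouse 10 highest. Its mVEGF-C+mIgG mice lay below the double controls, with a change of -0.06 (SE 0.062, edgeR adjusted p = 0.827). Kcnh1, an EAG channel, kept within 57.5 to 63.9 CPM and overlapped in all 5 comparisons. Kcna6 (96.3 to 103 CPM) and Kcnh3 (77.7 to 85.8 CPM) varied least of the 36, with an SD of log2 CPM over 12 mice of 0.034 and 0.043.

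Of 12 further Kv pore genes, Kcnh5 spanned the widest range for its level, 10.1 to 19.3 CPM, lowest in mouse 7 and highest in mouse 8, and overlapped in all 5 comparisons. Kcnh2, the ERG channel best known from heart, ranged over 16.8 to 19.8 CPM. Its eGFP+mAdu mice lay above the double controls, with a change of 0.12 (SE 0.057, edgeR adjusted p = 0.553), and above the mVEGF-C+mAdu mice. Kcna3, Kcnb2, Kcnc2, Kcnd1, Kcng2, Kcng3, Kcng4, Kcns1, Kcns2 and Kcnv1 did not pass edgeR's test in any comparison either, while limma-voom passed Kcnv1 for the antibody under mVEGF-C and for any difference.

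Fitted changes of the 36 Kv pore genes were balanced, with 17 positive for the antibody under eGFP, 19 under mVEGF-C, 17 and 19 for the vector under mIgG and mAdu, and 19 for the combined treatment. Their medians lay between -0.03 and 0.01.

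Auxiliary subunits of Kv channels include the Kcnab beta subunits, which bind Kv1 pores, and the KChIPs (Kcnip), calcium sensors that bind Kv4 pores. Kcnab1 measured 180.4, 186 and 189 CPM, then 165, 186 and 177, then 187, 177 and 172, and last 198, 196 and 189.6 CPM. The mVEGF-C+mAdu mice were the 3 highest of the 12, with a change of 0.15 (SE 0.045, edgeR adjusted p = 0.171) against eGFP+mAdu. Its exons overlap those of A330015K06Rik on the opposite strand. Kcnab3 measured 19.9, 24.7 and 22.5 CPM, then 21.9, 26.8 and 23.9, then 22.3, 25.2 and 22.99, and last 27.4, 27.3 and 26.4 CPM. The combined treatment lay above the double control by 0.28 (SE 0.083, edgeR adjusted p = 0.0803), with no overlap. Exons of Kcnab3 overlap its opposite-strand gene Kcnab3os.

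Kcnip3, also known as a transcriptional repressor, measured 96.8, 100.3 and 97.8 CPM, then 109, 105 and 108, then 88, 99.1 and 91.8, and last 93.9, 98.2 and 95.3 CPM. The eGFP+mAdu mice were the 3 highest, with changes of 0.13 (SE 0.043, edgeR adjusted p = 0.402) against eGFP+mIgG and, for mVEGF-C against eGFP under mAdu, -0.16 (SE 0.043, edgeR adjusted p = 0.124). Kcnip1 measured 19.9, 19.3 and 20.3 CPM, then 23.2, 21.3 and 23.9, then 21.5, 24.2 and 23.1, and last 18.9, 22.7 and 23.7 CPM. The double controls lay below the mice of both single treatments, by 0.20 (SE 0.078, edgeR adjusted p = 0.459) for the antibody and 0.21 (SE 0.078, edgeR adjusted p = 0.571) for the vector. Kcnip2 ranged over 102 to 140.03 CPM, highest in mouse 1 and lowest in mouse 8, and under mAdu the mVEGF-C mice lay above the eGFP mice, by 0.06 (SE 0.081, edgeR adjusted p = 0.766). Kcnip4 (59.3 to 70.2 CPM) overlapped in all 5 comparisons. The low auxiliary genes were Kcne1l (2.62 to 3.91 CPM) and Kcne4 (0.517 to 1.30 CPM).

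Among the potassium channels gated by calcium or sodium, Kcnt2, a sodium-activated channel, measured 68.96, 73.97 and 75.99 CPM, then 80.6, 74.6 and 80.5, then 74.9, 91.6 and 85.8, and last 81.8, 77.6 and 78.2 CPM. For the vector under mIgG the change was 0.21 (SE 0.062, edgeR adjusted p = 0.532), with mouse 7 inside the range of the double controls. Kcnma1, the pore of the large-conductance BK channel, ranged from 131 to 152 CPM, and its neuronal partner Kcnmb4 from 42.5 to 47 CPM. Kcnn1, a small-conductance SK channel, measured 20.7, 19.99 and 19.6 CPM, then 19.1, 18.02 and 18.8, then 18.9, 17.4 and 17.95, and last 18.4, 18.4 and 20.2 CPM. Both single treatments lay below the double controls, with changes of -0.11 (SE 0.059, edgeR adjusted p = 0.610) for the antibody and -0.15 (SE 0.06, edgeR adjusted p = 0.593) for the vector. Kcnt1, the other sodium-activated channel, measured 36.7, 41.7 and 35.96 CPM, then 46.3, 37.7 and 42.7, then 34.5, 45.96 and 40.4, and last 32.3, 39.1 and 34.4 CPM. For the vector under mAdu its change was -0.26 (SE 0.10, edgeR adjusted p = 0.246) with overlap. Kcnn2 (38.4 to 46.9 CPM) and Kcnn3 (9.99 to 14.8 CPM) encode the other SK channels. Without overlap, Kcnn2 was lower in eGFP+mAdu than in the double controls and in mVEGF-C+mAdu. Kcnmb4 was lower in mVEGF-C+mAdu than in mVEGF-C+mIgG and in eGFP+mAdu without overlap. Kcnmb1 (0.307 to 1.23 CPM), Kcnmb2 (4.50 to 7.30 CPM) and Kcnu1 (2.52 to 3.42 CPM) were low. Kcnu1 was placed in this group by its symbol, which does not show that calcium or sodium gates its channel. None of the 10 members of this group passed edgeR's test in any comparison. With limma-voom, Kcnn3 passed for the averaged antibody effect and Kcnmb2 for any difference. It also passed Kcnt2 for the vector under mIgG and Kcnt1 for the vector under mAdu, with adjusted p of 0.0218 and 0.0279.

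The inward rectifiers pass potassium near rest. Kcnj3, Kcnj6 and Kcnj9 encode the neuronal GIRK channels that open on G protein signals. Kcnj6 measured 29.5, 33.6 and 31.2 CPM, then 27.4, 34.1 and 28.97, then 33.4, 38.2 and 36.5, and last 34.1, 34.6 and 36.5 CPM. The mVEGF-C mice lay above the eGFP mice under mAdu, with mice 5 and 10 nearly equal, and the vector change averaged over antibodies was 0.21 (SE 0.054, edgeR adjusted p = 0.102). Kcnj3 (226 to 256 CPM) and Kcnj9 (103 to 119 CPM) had averaged vector changes of 0.05 and -0.05. Kcnj10, the Kir4.1 channel of astrocytes, ranged from 31.5 to 45.7 CPM and overlapped in all 5 comparisons. Its partner Kcnj16 (Kir5.1) measured 19.5, 23.3 and 21.3 CPM, then 26.2, 24.8 and 26.8, then 18.1, 21.5 and 22, and last 27.1, 22.1 and 23.5 CPM. The mAdu mice exceeded the mIgG mice of the same vector, narrowly for mice 9 and 11, and the antibody change averaged over vectors was 0.26 (SE 0.062, edgeR adjusted p = 0.0686).

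Kcnj2, the Kir2.1 channel, measured 22.6, 26.8 and 25.5 CPM, then 27.3, 21.7 and 25.2, then 27.6, 26.2 and 26.4, and last 23.3, 22.7 and 21.5 CPM. Under mVEGF-C the mAdu mice lay below the mIgG mice, with a change of -0.25 (SE 0.08, edgeR adjusted p = 0.202). Kcnj8, a subunit of ATP-sensitive channels known from pericytes, ranged over 2.18 to 3.30 CPM and overlapped in all 5 comparisons. Kcnj11 (14.8 to 18.4 CPM), Kcnj12 (5.66 to 9.54 CPM) and Kcnj14 (1.03 to 1.77 CPM) complete the inward rectifiers beside the 2 described next. Kcnj12 was higher in eGFP+mAdu and with the combined treatment than in the double controls without overlap. Kcnj14 was lower in mVEGF-C+mIgG than in the double controls and in mVEGF-C+mAdu without overlap.

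Kcnj13, the Kir7.1 channel known from choroid plexus epithelium, was the member with the largest fitted change. It lies on chromosome 1 (minus strand, 87386363 to 87394729) and measured 1.09, 0.976 and 0.998 CPM in eGFP+mIgG mice, 1.45, 1.11 and 0.974 in eGFP+mAdu mice, 0.367, 0.835 and 0.762 in mVEGF-C+mIgG mice and 0.384, 0.526 and 0.563 in mVEGF-C+mAdu mice. All mVEGF-C mice lay below all eGFP mice. The vector change averaged over antibodies was -0.95 (SE 0.20, edgeR adjusted p = 0.0533), and under mAdu it was -1.27 (SE 0.29, edgeR adjusted p = 0.0961). With edgeR's robust dispersion prior the averaged change passed, at an adjusted p of 0.0498. At about 1 CPM the gene is near the lower end of the table, and its exons overlap those of Gigyf2 on the opposite strand. Markers of choroid plexus moved with it in part: Ttr measured 30.4, 74.2 and 50.1 CPM, then 63.1, 46.1 and 59.6, then 19.2, 29.1 and 27.4, and last 18.8, 14.3 and 16.8 CPM, and Folr1 measured 1.60, 0.976 and 1.76 CPM, then 1.84, 1.47 and 1.62, then 1.67, 1.07 and 1.37, and last 0.615, 0.768 and 1.09 CPM. Kl, another listed marker, ranged from 17.04 to 23.8 CPM and did not follow the vector. The summed level of the 5 measured choroid markers was 57.6 to 104 CPM in the double controls, 73.3 to 88.6 in eGFP+mAdu, 50.4 to 55.6 in mVEGF-C+mIgG and 41.4 to 44.6 in mVEGF-C+mAdu. None of the 5 averaged under 1 CPM. Ependymal markers summed to 33.4 to 43 CPM in the double controls and 20.2 to 33.2 CPM with the combined treatment. In eGFP+mAdu they summed to 34.2 to 40 CPM and in mVEGF-C+mIgG to 34.4 to 38, both overlapping with the double controls. The part of these cells in the Kcnj13 values was not tested.

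Kcnj4, an inward rectifier of forebrain neurons, measured 98.2, 111 and 100.1 CPM, then 119.99, 111 and 107, then 106, 96.8 and 103, and last 95.5, 96.2 and 96.9 CPM. The mVEGF-C+mAdu mice lay below all others but for mouse 8 and differed from eGFP+mAdu by -0.23 (SE 0.053, edgeR adjusted p = 0.100). Between these 2 groups, DESeq2 (adjusted p = 0.0233) and limma-voom (adjusted p = 0.0146) passed Kcnj4. The striatal marker Penk differed in the same direction between these groups and measured 19.4, 17.4 and 19.03 CPM, then 27.95, 25.3 and 28.5, then 14.8, 25.8 and 19.8, and last 17.7, 21.2 and 20.5 CPM. The 8 striatal markers summed to 87 to 88.3 CPM in the double controls, 106 to 116 in eGFP+mAdu, 82.5 to 114 in mVEGF-C+mIgG and 78.7 to 92.3 in mVEGF-C+mAdu, and 1 of the 8 averaged under 1 CPM. Kcnf1, Kcnip3 and Kcnh4 were likewise higher in eGFP+mAdu than in mVEGF-C+mAdu by their group means, whereas Scn4b was lower. Whether the amount of striatal tissue has a part in these values was not tested.

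**Figure D5:**
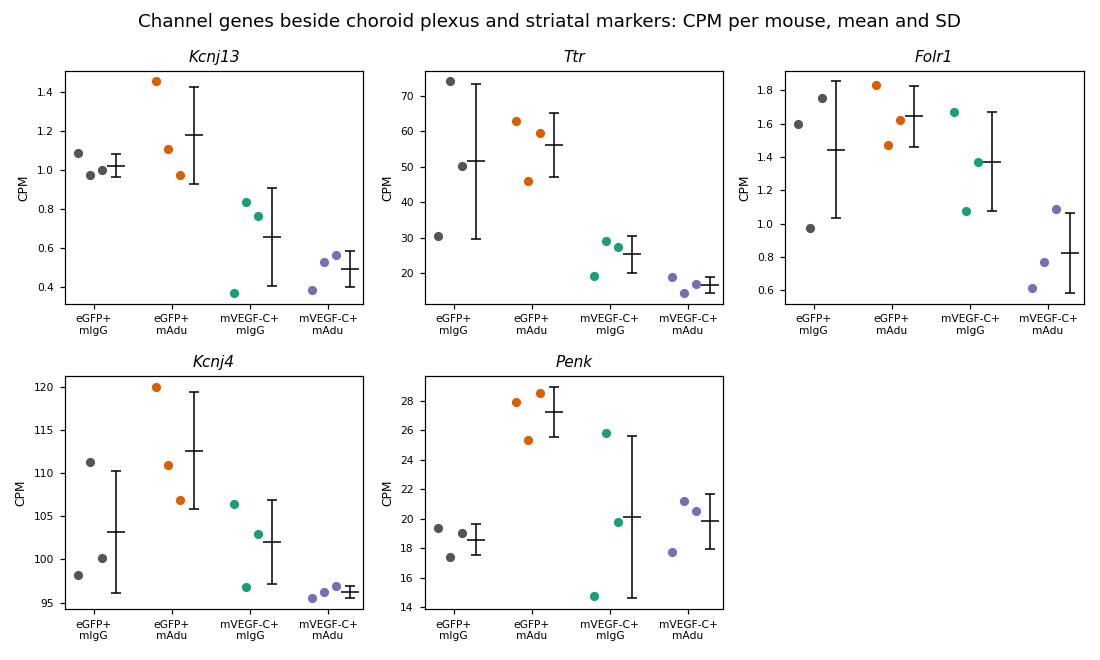
CPM in each mouse (points, vertical axis) by group (horizontal axis), with mean and SD (bars, n = 3), of Kcnj13 beside the choroid plexus markers Ttr and Folr1 and of Kcnj4 beside the striatal marker Penk, on axes that do not start at 0. Kcnj13 and Ttr are lower in all 6 mVEGF-C mice than in all 6 eGFP mice, and Penk is highest as a group in eGFP+mAdu.

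The 2-pore channels carry leak current. Kcnk1 measured 75.6, 86.1 and 77.1 CPM, then 80.8, 84.6 and 80.9, then 80.8, 85.2 and 82.3, and last 87.3, 84.4 and 85.9 CPM and had the highest level of the 10 per kilobase, at 46.6 by median and 36.9 by longest length in CPM per kb. Kcnk2 (19.8 to 26.8 CPM) and Kcnk9 (9.17 to 12.8 CPM) followed no group, except that Kcnk9 was higher in mVEGF-C+mAdu than in eGFP+mAdu without overlap. The others were Kcnk10 (10.5 to 13.9 CPM), Kcnk13 (8.48 to 12.3 CPM), Kcnk12 (7.74 to 10.97 CPM), Kcnk3 (6.57 to 8.89 CPM), Kcnk4 (4.89 to 6.56 CPM), Kcnk6 (3.08 to 5.37 CPM) and Kcnk5 (0.654 to 1.26 CPM). Without overlap, Kcnk10 was lower in eGFP+mAdu than in the double controls and in mVEGF-C+mAdu. Likewise, mVEGF-C+mAdu lay above eGFP+mAdu for Kcnk4, below it for Kcnk12 and above the double controls for Kcnk13. Kcnk3 was higher in mVEGF-C+mIgG than in the double controls, and Kcnk5 and Kcnk6 overlapped throughout. None of the 10 members passed in any edgeR comparison.

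Among the HCN genes, Hcn2 encodes a form of hippocampal neurons. It ranged from 117 to 134 CPM and overlapped in all 5 comparisons. Hcn3 (7.04 to 9.11 CPM) was lower in mVEGF-C+mAdu than in eGFP+mAdu without overlap, with a change of -0.21 (SE 0.095, edgeR adjusted p = 0.342). Hcn4, the low pacemaker form, measured 2.11, 2.14 and 2.34 CPM, then 2.94, 1.66 and 2.23, then 1.47, 2.07 and 1.37, and last 1.38, 1.41 and 1.33 CPM. The mVEGF-C+mAdu mice lay below both eGFP groups, and the vector change averaged over antibodies was -0.58 (SE 0.15, edgeR adjusted p = 0.105).

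Partners of these channels outside the rule gave no more calls. Of 40 listed genes, among them the ankyrins that anchor sodium channels (Ank2, Ank3), intracellular FGFs, the Kv4 partners Dpp6 and Dpp10, Lgi genes and chloride channels, 39 were measured, and 0 passed edgeR's test in any comparison. At an unadjusted p under 0.05 there were 5 and 6 for the antibody under eGFP and mVEGF-C, 0 and 7 for the vector under mIgG and mAdu, and 13 for the combined treatment. These are 12.8, 15.4, 0, 17.9 and 33.3% of the 39, beside 9.21, 12.7, 7.91, 14.3 and 20.4% of all genes.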

How the data were processed

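Raw, unnormalized read counts per gene for 12 libraries were deposited by the authors. The submitters' processing notes name STAR, featureCounts of Subread, edgeR, FastQC and Trim Galore, and the build mm10. Per the labels' protocols, RNA was extracted with a PicoPure kit and amplified linearly before library preparation. Versions, annotation, strand use and the treatment of multi-mapping reads are not stated in the labels or notes. Totals ran from 23213612 to 29295266 reads, and no sample column was left out. With no molecular identifiers given, this depth describes reads, not molecules.

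Groups came from GEO's labels. Counts were fitted with edgeR 4.0.16 (R 4.3.3, TMM, filterByExpr, which removed 0 genes) over all 14881 genes and 12 libraries, with 1 mean per group. Contrasts were tested two-sided with the quasi-likelihood test and Benjamini-Hochberg adjustment over all genes at 0.05. The common biological coefficient of variation was 5.16%. The dispersion prior was run in robust and default form, and the default, which an earlier analysis of this table had used, was kept after both outputs had been seen. Symbols, lengths and GC content came from GENCODE M21 on GRCm38, which named 14797 genes and left 84 without a symbol. Exons of 36 members overlap another gene, 33 of them on the opposite strand. Promoters came from RefSeq.

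The members and gene lists were chosen with earlier results of these data known. Named were members that passed, the 5 higher and 5 lower with the smallest p in each pairwise comparison, the 2 highest per kilobase in each of 10 roles, the 10 most variable with at least 1 CPM, and a followed set, 78 genes in all, of which some are not reported here. App and other genes outside the rule were picked once their values were known. Alternatives were DESeq2 1.42.0 (Wald test, or likelihood ratio test for any difference), limma 3.58.1 (voom with sample quality weights), other size factors, no filter, only the groups compared, libraries left out, and removal of GC and length trends (4 spline degrees of freedom). The fit was tested on simulated data.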

Additional observations from a re-analysis of the deposited data

How the results depend on the processing

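No paired analysis was possible because the groups share no replicate number. DESeq2 size factors kept the number of passing members the same in every comparison. Leaving out the filter on low counts could not change the fit, since the filter removed 0 genes. With the DESeq2 test the number passing was 1 and 1 for the antibody under eGFP and mVEGF-C, 1 for the vector under mAdu, 4 for the combined treatment, 4 and 3 for the averaged antibody and vector effects, and 7 for any difference. With limma-voom and sample quality weights it was 12, 10, 10, 17 and 23 in the 5 pairwise comparisons, 3 for the interaction, 20 and 21 for the averaged effects, and 50 for any difference. Fitting only the groups compared gave 1 for the vector under mAdu and 7 for the combined treatment, and could not be done for the averaged effects or the interaction. Leaving out mice 3, 6, 9 and 12 gave 0 for the combined treatment, 0 for the averaged antibody effect and 0 for any difference, with fewer samples in the fit. Leaving out mice 5 and 6 gave 1 for the vector under mAdu, 6 for the averaged vector effect and 2 for any difference, and left 1 mouse in eGFP+mAdu, assumed to vary like the other groups. Removing GC and length trends gave 1 for the antibody under mVEGF-C, 0 for the combined treatment and 2 for the averaged antibody effect. That correction was changed after its first output was seen, since it had applied the TMM scaling more than once. The robust dispersion prior, which was run first and replaced by the default after both outputs were seen, gave 1 for the averaged vector effect, Kcnj13. Leaving out ENSMUSG00000045999, added after seeing the data, gave 1 for the combined treatment. Of all genes, 4.1% passed for the combined treatment with only the groups compared, and 0.82% for the averaged vector effect without mice 5 and 6. Log2 changes that involve eGFP+mAdu also moved without mice 5 and 6, some away from 0 and some toward it. For the antibody under eGFP, Cacna1c went from -0.14 to -0.23 and Cacna1h from -0.29 to -0.26. For the vector under mAdu, Scn4b went from 0.32 to 0.64 and Kcnk9 from 0.19 to 0.13. The cause of these differences was not tested.

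With each mouse left out in turn, the number passing ran from 0 to 1 (antibody under eGFP), 0 to 2 and 0 to 3 (vector under mIgG and mAdu), 0 to 6 (combined treatment), 0 to 4 and 0 to 7 (averaged antibody and vector effects) and 0 to 7 (any difference), and stayed at 0 for the antibody under mVEGF-C and for the interaction. Of all genes, 0.0269 to 0.235% and 0.0134 to 0.927% passed for the antibody under eGFP and mVEGF-C in these fits, 0.00672 to 0.349% and 0 to 0.739% for the vector under mIgG and mAdu, 0.0806 to 3.99% for the combined treatment, 0 to 0.242% for the interaction, 0.0605 to 1.16% and 0.0269 to 1.7% for the averaged antibody and vector effects, and 0.0874 to 2.61% for any difference. The counts of 6 and 7 came without mouse 7 or mouse 5: 6 and 6 without mouse 7 for the combined and averaged vector effects, 7 without mouse 7 for any difference, and 7 without mouse 5 for the averaged vector effect. Of all genes, 3.99, 1.7, 2.61 and 1.26% passed in these 4 fits, in that order, beside 2.18, 0.39, 0.618 and 0.39% with all mice, so calls over all genes also grew more numerous. The combined treatment had 0 passing members without mouse 1, 3, 10 or 12. The median change of the members for the vector under mIgG ran from -0.0228 (without mouse 8) to 0.0324, and that for the interaction from -0.0320 (without mouse 2) to 0.0310. Numbers of members without overlap, recomputed with other size factors or with trends removed after seeing the data, stayed within 1.5 times of those reported. Families summed per kilobase with the longest transcript moved by more than 1 SD in all 10 roles. At this depth the lowest members, near 1 CPM, rest on few reads per library.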
